A study of Mus musculus with 9 samples.

Results

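The transcripts of the Musashi RNA-binding proteins (Msi1 and Msi2), of their partner Syncrip and of 3 reported Musashi targets (Numb, Tspan3 and Myc) were followed in RNA-seq counts of sorted mouse haematopoietic stem and progenitor cells. The genes were picked by name, without a threshold on their values, although earlier results of these data were known. They are 6 of the 24060 named genes of the table, and 5 of the 6 passed the filter on low counts. All 6 names lie in the stretch of the table where names and counts had slipped against each other by 2 places, so every value below rests on names moved back into place.

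The cells were LSKs, that is, CD45.2 cells low for lineage markers and positive for Sca1 and Kit, the bone marrow fraction that holds stem cells and multipotent progenitors. The control group (n = 3 libraries) came from C57BL/6 marrow. The NHD13 group (n = 2) carried the Vav-Tg-NUP98-HOXD13 fusion, expressed from the Vav promoter throughout the blood system and used as a mouse model of myelodysplastic syndrome. The libraries labelled NHD13/MSI2 (n = 4) carried the same fusion plus KH2-Col1A1-tet-on-MSI2/ROSA26-rtTA, in which doxycycline switches on an MSI2 transgene. All 3 groups share the transplantation: marrow was placed with CD45.1 helper cells in lethally irradiated congenic CD45.1 hosts, and the mice were fed doxycycline for 3 months, so that drug and transplantation do not separate the groups. The labels give strain C57BL/6 and an age of 4 months for all 9 libraries. The paper counts the time of sampling from transplantation of marrow from adult donors. The labelled age therefore need not be the age of the mice or of the sorted cells. No label says that libraries of a group came from separate mice. The p-values therefore measure the spread between these libraries, which may be technical. Libraries of a group differed beyond counting error (chi-square per gene of 18.7 to 426), and whether that spread lies between mice was not tested. The labels call all 9 libraries LSK, although MPP and HSC appear in the library names of control replicates 2 and 3, and Bulk in that of replicate 1.

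Musashi proteins bind RNA through a pair of RNA recognition motifs, mostly at short UAG-containing words in 3′ UTRs, and change the translation and stability of the bound transcripts. MSI2 is the family member known from blood stem cells, where it is linked to self-renewal and to myeloid leukaemia, whereas MSI1 is best known from neural and gut epithelial progenitors. SYNCRIP is a heterogeneous nuclear ribonucleoprotein that associates with MSI2 and shares part of its RNA targets. NUMB antagonises Notch signalling, TSPAN3 is a tetraspanin of the cell membrane, and MYC is a transcription factor of growth and proliferation. The counts read RNA abundance and do not read translation or protein.

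Sites that Musashi proteins could recognise are shown first for the 3 target transcripts, which were picked as reported targets and not for these words. The word ATAGT with its longer forms ATTAGT as well as ATTTAGT, and likewise the word GTAGT with its longer forms GTTAGT as well as GTTTAGT, spell the Musashi consensus with T for U. They were searched on the transcript strand of the longest annotated 3′ UTR of each gene (GENCODE M21, GRCm38). A word can overlap another, as at bases 840 and 843 of Numb, and both then count. The deposited counts were made on mm9, so the coordinates place the sequences only. Each line gives the position in the 3′ UTR, the 30-base window and its strand, with the word in capitals. The Numb word at base 843 has no line of its own. It lies in the window of base 840, where its last bases are in lower case.

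Numb, base 502, chr12:83794920-83794949, minus strand: cccagtagagctGTAGTctggggataaagc
Numb, base 617, chr12:83794805-83794834, minus strand: agaatattttaaATAGTtctcaatattaaa
Numb, base 840, chr12:83794582-83794611, minus strand: tgcagtcactagGTAGTagttttaataaga
Tspan3, base 27, chr9:56136599-56136628, minus strand: ctgagctaatttGTAGTatccttgttctga
Tspan3, base 426, chr9:56136200-56136229, minus strand: agaatatatactGTAGTacaataatatagc
Tspan3, base 529, chr9:56136097-56136126, minus strand: ctgatctttgaaATTAGTggtttttaatca
Tspan3, base 692, chr9:56135934-56135963, minus strand: gagactagcaaaATAGTatgtagatgtgat
Myc, base 175, chr15:61990071-61990100, plus strand: cctcaaacttaaATAGTataaaagaacttt

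The Tspan3 3′ UTR held 4 matches in 759 bases, that of Numb 4 in 1405 bases and that of Myc 1 in 466 bases. Such words are common: of 20536 genes with a 3′ UTR of at least 50 bases, 67.2% held at least 1. Among genes whose 3′ UTR was within 10% of the same length, 67.6% held a match for the length of Tspan3, 86.7% for that of Numb and 50.3% for that of Myc, with medians of 1, 2 and 1 matches. Syncrip, the partner, held 35 matches in 7245 bases, against a median of 18 in 187 genes of like length. The transcripts of the Musashi genes themselves held 10 matches in 5310 bases (Msi2, median of like genes 11) and 1 in 1895 bases (Msi1, median of like genes 3). At the start of the long Msi2 3′ UTR, 3 of its words lie close together and are printed because Msi2 is both the binding protein and a transcript with candidate sites.

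Msi2, base 327, chr11:88344348-88344377, minus strand: caatcacatttgGTAGTgatttttgactta
Msi2, base 350, chr11:88344325-88344354, minus strand: tgacttagtctgGTAGTcacccagcttaat
Msi2, base 386, chr11:88344289-88344318, minus strand: ttaaagctaaccATAGTatacttgttatat

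**Figure D1:**
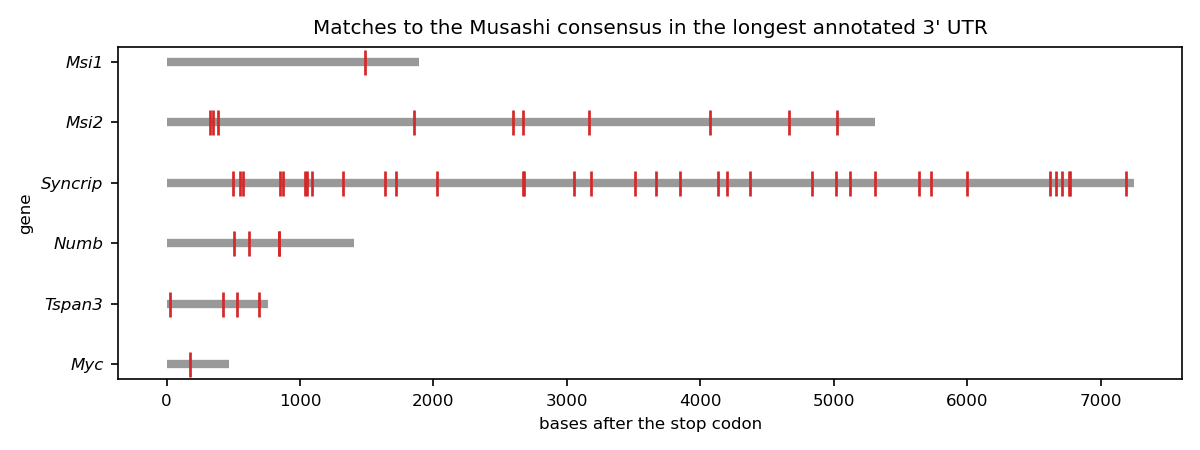
Musashi words (red ticks) along the longest annotated 3′ UTR (grey bars) of the 6 genes, by distance in bases after the stop codon. Syncrip has 35 words spread over 7245 bases, the short UTR of Tspan3 has 4 in 759 bases, and 3 of the 10 words of Msi2 lie close together near the stop codon.

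The 9 libraries held 19242153 to 23013493 counts in named genes, so that 3 counts, the floor used for a gene without counts, correspond to 0.130 to 0.156 CPM, the count scaled to a common library size. Levels are given as CPM after TMM scaling (trimmed mean of M values, a factor per library that corrects for composition). NHD13/MSI2 replicate 4 stood apart: its TMM factor was 0.785 against 0.97 to 1.09 in the others, and 78 genes of ribosomal proteins took 1.54% of its counts against 3.66% to 4.82%. The members' values are given with and without this library where it changes them. Of the genes that define the LSK gate, Kit stood at 908 to 2254 CPM in all 9 libraries and Ly6a, which encodes Sca1, at 48.3 to 89.8 CPM in control and NHD13 and at 375, 254, 312 and 98.6 CPM in NHD13/MSI2. The T cell genes Cd3e and Cd3d had at most 14 and 7 counts in any library, whereas Lck, a kinase of T cells, stood at 36.1 to 193 CPM. Counting intervals and floors cover counting error only.

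Msi2 is the gene that the third genotype was built to raise, and its count did not rise in the 4 libraries that bear the MSI2 label. In control replicates 1 to 3 Msi2 (chr11:88339382-88718513 of GRCm38, minus strand) stood at 223, 316 and 266 CPM. In NHD13 replicates 1 and 2 it stood at 139 and 111 CPM, and in NHD13/MSI2 replicates 1 to 4 at 88.0, 77.1, 82.8 and 241 CPM. The controls and both NHD13 libraries did not overlap, 3 of the 4 NHD13/MSI2 libraries lay below both NHD13 libraries, and replicate 4 lay inside the control range. How many of all genes separate these groups in the same way was not counted, and with so few libraries some do so by chance. The means were 268 ± 46.4 (SD, n = 3) in control, 125 ± 19.9 (n = 2) in NHD13 and 122 ± 79.5 (n = 4) in NHD13/MSI2, or 82.6 ± 5.47 over NHD13/MSI2 replicates 1 to 3. In raw counts the rows read 5459, 6657 and 6661 in control, 3017 and 2238 in NHD13, and 1702, 1546, 1830 and 3720 in NHD13/MSI2, so that depth is not the limit for this gene.

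Differences were tested with edgeR's quasi-likelihood test over all 9 libraries with Benjamini-Hochberg adjustment over 13355 genes, and a gene was called at an adjusted p under 0.01. This calls 3.17% of all genes in NHD13/MSI2 against NHD13, 11% in NHD13/MSI2 against control and 1.03% in NHD13 against control. By this test Msi2 differed by −0.03 on the log2 scale between NHD13/MSI2 and NHD13 (SE 0.44, 95% interval −1.02 to 0.97, adjusted p = 0.983). Against control the log2 difference was −1.13 in NHD13/MSI2 (SE 0.39, 95% interval −2.01 to −0.26, adjusted p = 0.0688), a level of 45.5% of control, and −1.11 in NHD13 (SE 0.48, 95% interval −2.19 to −0.02, adjusted p = 0.358). None of the 3 differences was called. Without NHD13/MSI2 replicate 4, Msi2 was lower than control by −1.69 in NHD13/MSI2 (adjusted p = 0.000135) and by −1.12 in NHD13 (adjusted p = 0.00678), both called, and the difference between NHD13/MSI2 and NHD13 was −0.58 (adjusted p = 0.0443), not called. Over all alternative settings the adjusted p ranged from 0.000135 to 0.198 for NHD13/MSI2 against control and from 0.00678 to 0.946 for NHD13 against control. These ranges include the names as deposited, where the name Msi2 stood beside the counts of another gene. The 2 comparisons with control share the 3 control libraries.

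The labels state MSI2 induction, and the Msi2 row does not show it. The species and the 3′ end of the MSI2 transgene are not given in the sources used here, and whether its reads were counted in the Msi2 row was not tested, since only counts per gene are held. With the names as deposited, the row that carried the name Msi2 was not higher either (−0.33 against NHD13, adjusted p = 0.348, and −0.42 against control, adjusted p = 0.108). Every direction given for the libraries labelled NHD13/MSI2 therefore rests on their label. In bulk samples, fewer cells of a type and less RNA per cell cannot be told apart.

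**Figure D2:**
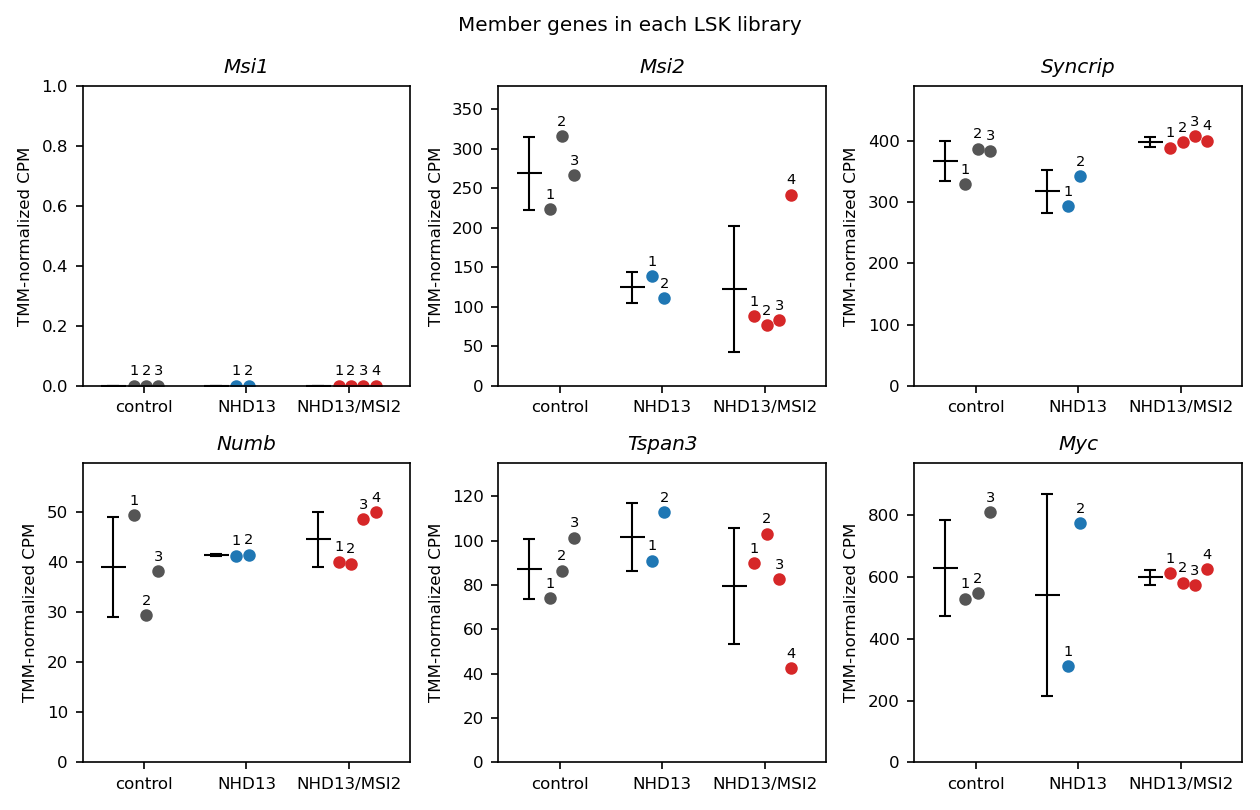
Level of each of the 6 genes in each of the 9 libraries in TMM-scaled CPM, 1 panel per gene, with numbered points for replicates and bars for the group mean ± SD. Msi1 is at 0 throughout, Msi2 runs from 77.1 to 316 CPM with NHD13/MSI2 replicate 4 at 241, and Tspan3 is lowest in that same library at 42.4 CPM.

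Msi1, the other Musashi gene (chr5:115429599-115455698, plus strand), had 0 counts in all 9 libraries and was not tested. With floors of 0.130 to 0.156 CPM per library before TMM scaling, Msi1 was not detectable at this depth in any group.

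Syncrip, the partner of MSI2 (chr9:88447009-88482574, minus strand), was measured in a narrow range. It stood at 329, 388 and 384 CPM in control, at 293 and 342 CPM in NHD13 and at 389, 398, 408 and 400 CPM in NHD13/MSI2. All 4 NHD13/MSI2 libraries lay above all control and NHD13 libraries, narrowly so for the lowest of them, and the control and NHD13 ranges overlapped. The share of all genes with such a separation was not counted. This separation depended on the TMM factors: by library totals NHD13/MSI2 stood at 377, 387, 396 and 314 CPM against 352, 412 and 417 in control and 314 and 360 in NHD13, which overlap, and the difference from control turned to −0.095. With TMM factors the means were 367 ± 32.6 (n = 3), 318 ± 34.7 (n = 2) and 399 ± 7.90 (n = 4). The log2 difference was 0.33 between NHD13/MSI2 and NHD13 (SE 0.15, 95% interval −0.01 to 0.66, adjusted p = 0.239), 0.12 between NHD13/MSI2 and control (SE 0.13, 95% interval −0.17 to 0.41, adjusted p = 0.573) and −0.21 between NHD13 and control (SE 0.16, 95% interval −0.56 to 0.14, adjusted p = 0.692). None passed the threshold. DESeq2 gave 0.35 for NHD13/MSI2 against NHD13 with an adjusted p of 0.055. Syncrip overlaps exons of Gm20537 on the same strand, so reads of these genes may have been split or left out in counting.

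Numb, the Notch antagonist (chr12:83794034-83921934, minus strand), had overlapping levels in the 3 groups. They were 49.5, 29.4 and 38.3 CPM in control, 41.3 and 41.5 CPM in NHD13 and 40.1, 39.7, 48.7 and 49.97 CPM in NHD13/MSI2. Both NHD13 libraries lay within the control range, and the NHD13/MSI2 libraries overlapped both. Means were 39.1 ± 10.1 (n = 3), 41.4 ± 0.171 (n = 2) and 44.6 ± 5.46 (n = 4). The log2 difference was 0.11 between NHD13/MSI2 and NHD13 (SE 0.22, 95% interval −0.38 to 0.59, adjusted p = 0.833), 0.19 between NHD13/MSI2 and control (SE 0.19, 95% interval −0.23 to 0.62, adjusted p = 0.534) and 0.08 between NHD13 and control (SE 0.23, 95% interval −0.42 to 0.59, adjusted p = 0.960). The sign of the NHD13/MSI2 differences turned with library totals in place of TMM factors (−0.10 and −0.03), so no direction is given. Numb overlaps Gm46367 on the opposite strand, and whether the counting used strand is not given in the sources used here.

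Tspan3, the tetraspanin target (chr9:56131725-56165477, minus strand), was spread most in NHD13/MSI2, through 1 library. It stood at 74.0, 86.5 and 101 CPM in control, at 91.0 and 113 CPM in NHD13 and at 89.8, 103, 82.7 and 42.4 CPM in NHD13/MSI2. The first 3 NHD13/MSI2 libraries lay among the control and NHD13 libraries, and replicate 4 lay below all others. Means were 87.3 ± 13.6 (n = 3), 102 ± 15.3 (n = 2) and 79.5 ± 26.1 (n = 4), or 91.9 ± 10.3 over NHD13/MSI2 replicates 1 to 3. The log2 difference was −0.36 between NHD13/MSI2 and NHD13 (SE 0.30, 95% interval −1.04 to 0.32, adjusted p = 0.559), −0.13 between NHD13/MSI2 and control (SE 0.27, 95% interval −0.74 to 0.47, adjusted p = 0.779) and 0.22 between NHD13 and control (SE 0.32, 95% interval −0.50 to 0.95, adjusted p = 0.898). Without NHD13/MSI2 replicate 4 the difference from control turned to 0.08 (adjusted p = 0.724) and that from NHD13 was −0.13 (adjusted p = 0.652). With names as deposited, the row called Tspan3 would have been called lower (−2.40, adjusted p = 0.00973, and −2.38, adjusted p = 0.003), but those counts belong to Tspan2 once names are moved back.

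Myc, the transcription factor (chr15:61985391-61990374, plus strand), had widely spread levels in control and NHD13 and narrow ones in NHD13/MSI2. They were 530, 548 and 808 CPM in control, 311 and 773 CPM in NHD13 and 612, 582, 573 and 625 CPM in NHD13/MSI2. The 2 NHD13 libraries differed by more than the whole NHD13/MSI2 range, and the groups overlapped throughout. Means were 628 ± 156 (n = 3), 542 ± 327 (n = 2) and 598 ± 24.5 (n = 4). The log2 difference was 0.14 between NHD13/MSI2 and NHD13 (SE 0.33, 95% interval −0.59 to 0.87, adjusted p = 0.857), −0.07 between NHD13/MSI2 and control (SE 0.28, 95% interval −0.71 to 0.57, adjusted p = 0.896) and −0.21 between NHD13 and control (SE 0.34, 95% interval −0.98 to 0.56, adjusted p = 0.911). With the 2 NHD13 libraries so far apart, these intervals are wide, and a p above the threshold does not show that the groups are alike. Without NHD13/MSI2 replicate 4 the difference between NHD13/MSI2 and NHD13 was 0.13 for Myc (adjusted p = 0.851), 0.07 for Numb (adjusted p = 0.883) and 0.34 for Syncrip (adjusted p = 0.0838), none of them called.

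Across the 3 comparisons 0 of the 5 tested genes were called by edgeR's quasi-likelihood test in NHD13/MSI2 against NHD13, in which 3.17% of all 13355 genes were called (0.584% higher and 2.58% lower). Against control, 0 of 5 were called in NHD13/MSI2, where 11% of all genes were called (4.49% higher and 6.55% lower), and 0 of 5 in NHD13, where 1.03% were called (0.824% higher and 0.21% lower). In the joint test of the 3 groups 0 of 5 were called, against 8.9% of all genes. At an unadjusted p under 0.05 the counts were 0 in NHD13/MSI2 against NHD13, 1 (Msi2) in each comparison with control and 1 (Msi2) in the joint test. DESeq2 at the same adjusted threshold also called 0 in each, and at an unadjusted p under 0.05 it counted 1 (Syncrip) in NHD13/MSI2 against NHD13, 1 (Msi2) in each comparison with control and 2 in the joint test. Too few genes were tested for 0 of 5 to be told apart from these shares.

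**Figure D3:**
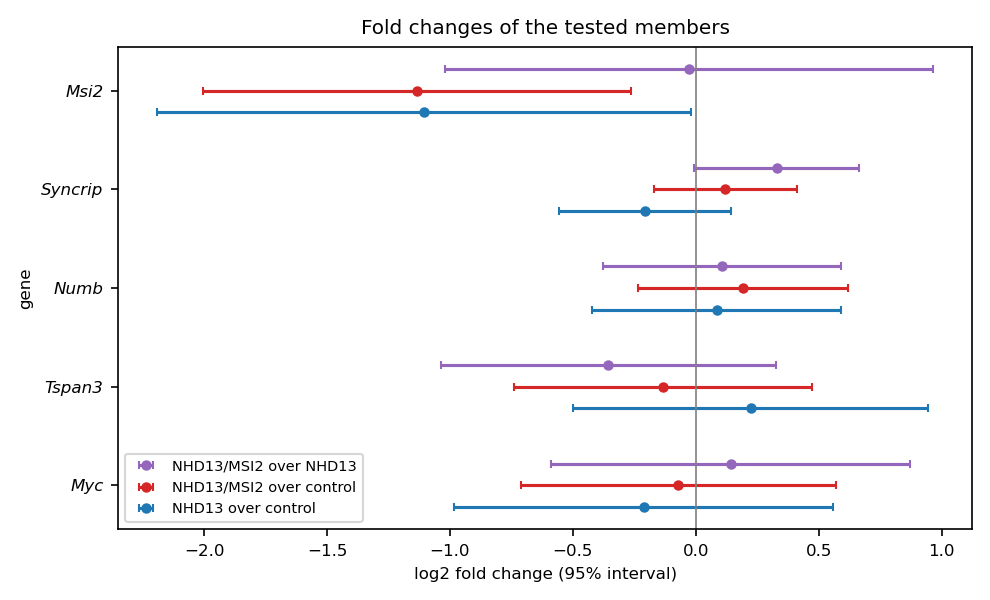
Log2 difference of Msi2, Syncrip, Numb, Tspan3 and Myc in the 3 comparisons, with bars for the 95% interval of edgeR's quasi-likelihood fit and a line at 0. The intervals of Syncrip, Numb, Tspan3 and Myc all include 0, and Msi2 has the widest interval in each comparison, from −1.02 to 0.97 in NHD13/MSI2 against NHD13.

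The calls of Msi2 against control appeared only where NHD13/MSI2 replicate 4 was left out or absorbed by a block. The range over all settings was −1.70 to −0.42 for NHD13/MSI2 against control, −1.28 to −0.09 for NHD13 against control and −0.59 to 0.16 for NHD13/MSI2 against NHD13. The values nearest 0 against control came from the names as deposited. Apart from NHD13/MSI2 replicate 4, the libraries were ordered control above NHD13 above NHD13/MSI2, with no overlap. That library was set aside after its value was seen, and the share of all genes with such an order was not counted. Without it, 2063 of 13355 genes were called in NHD13/MSI2 against control, 254 in NHD13 against control and 650 in NHD13/MSI2 against NHD13.

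**Figure D4:**
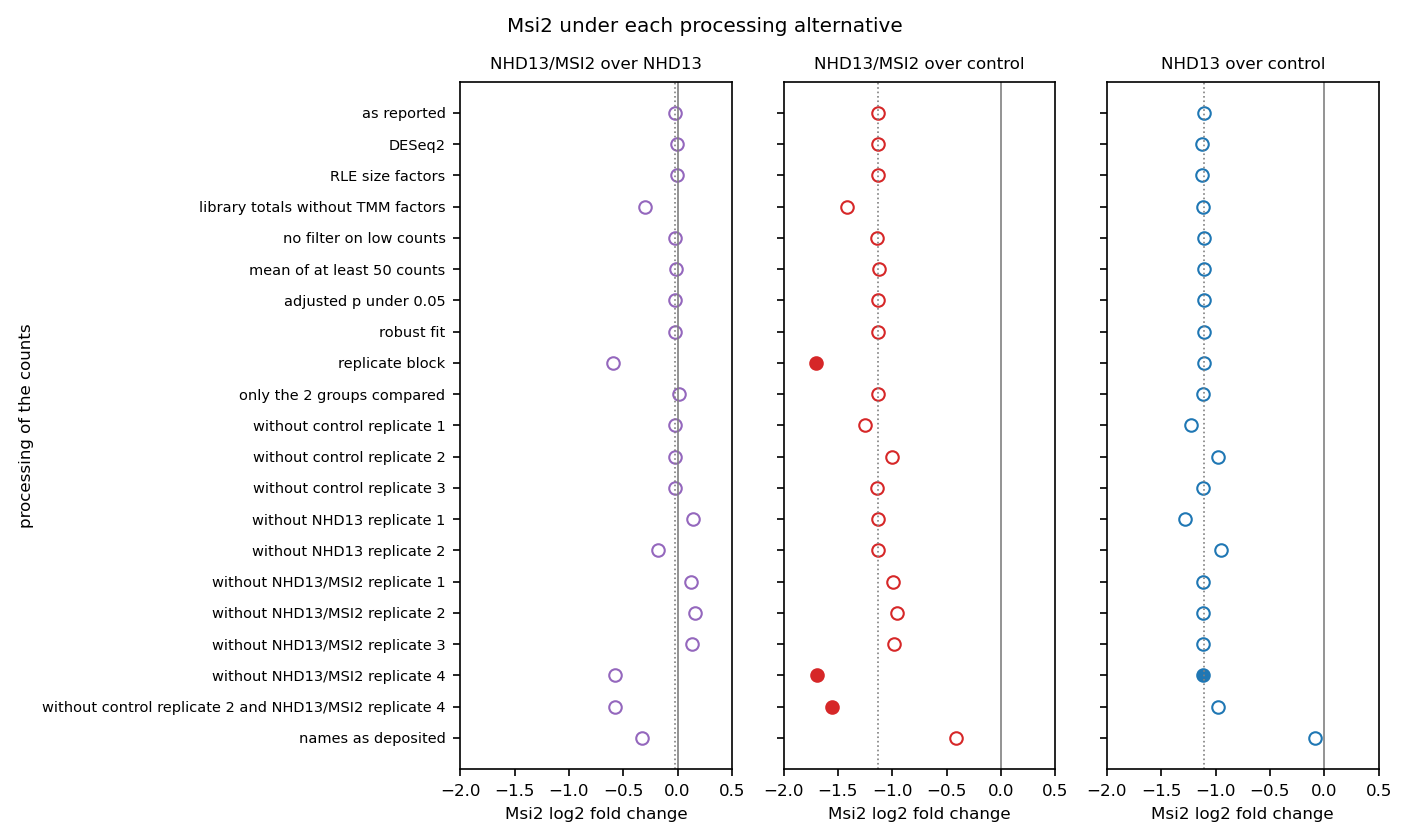
Log2 difference of Msi2 in the 3 comparisons under each alternative setting, filled where the adjusted p is under 0.01. The differences from control lie below 0 in every setting, from −1.70 to −0.42 for NHD13/MSI2, and that between NHD13/MSI2 and NHD13 lies on both sides of 0, from −0.59 to 0.16.

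Within a library the genes can be ranked only per length, as CPM per kilobase of annotated exon. The exon lengths are those of GENCODE M21 (GRCm38), whereas the counts were made on mm9 with an annotation that may differ. Genes at close levels, such as Tspan3, Msi2 and Syncrip, may therefore change order with other lengths, which was not tested. In control Myc was highest at 257 ± 63.6, followed by Tspan3 at 48.3 ± 7.53, Msi2 at 39.6 ± 6.84, Syncrip at 35.9 ± 3.18 and Numb at 10.5 ± 2.70 (n = 3). Tspan3, Msi2 and Syncrip, at 41.0 to 56.0, 32.9 to 46.6 and 32.2 to 37.9, were close: Msi2 overlapped both Tspan3 and Syncrip, while Tspan3 lay above Syncrip without overlap. Myc above and Numb below them were apart from all 3. In NHD13 the order was Myc at 222 ± 133, Tspan3 at 56.3 ± 8.49, Syncrip at 31.0 ± 3.39, Msi2 at 18.4 ± 2.94 and Numb at 11.1 ± 0.0459 (n = 2). In NHD13/MSI2 Myc stood at 244 ± 10.01, Tspan3 at 44.0 ± 14.4, Syncrip at 39.0 ± 0.772, Msi2 at 18.0 ± 11.7 and Numb at 11.97 ± 1.47 (n = 4). In both of these groups Msi2 lay below Syncrip in every library, NHD13/MSI2 replicate 4 included (35.6 against 39.1). In every control library Msi2 lay above Syncrip, although the ranges overlapped: 32.9 against 32.2, 46.6 against 37.9 and 39.3 against 37.5 in replicates 1 to 3. Tspan3 lay above Msi2 in each control library too. Tspan3 did not overlap Syncrip in NHD13 but did in NHD13/MSI2, where it ran from 23.5 to 57.0, and the ranges of Msi2 and Numb overlapped there too (11.4 to 35.6 and 10.6 to 13.4).

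Over the 9 libraries the 5 genes did not vary as one. Pearson's r of log2 CPM was highest for Syncrip and Myc at 0.61 and lowest for Numb and Tspan3 at −0.50, and the other pairs lay from −0.40 to 0.10. These describe 9 libraries of 3 groups, so that r also reads differences between groups, and no p is given. Of 10971 genes with a mean of at least 50 counts, those most like Msi2 were Eml4 (0.97), Tmco1 (0.97) and Nfia (0.96). Nfia stood at 160, 151 and 158 CPM in control, 90.1 and 40.9 in NHD13 and 29.2, 27.2, 40.4 and 178 in NHD13/MSI2, thus with replicate 4 again in the control range. The likeness of Msi2 to the 3 genes was 0.96 to 0.97 also without that library. The nearest genes to Tspan3 were Rnf126 (0.99), Sf3a3 (0.99) and Ilkap (0.97, and 0.86 without NHD13/MSI2 replicate 4). Those to Syncrip were Pkib (0.96), Zfp97 (0.94) and Prdx2 (0.93), those to Numb were Vps11 (0.95), Mul1 (0.94) and Kdm1b (0.94), and those to Myc were Dis3l (0.89), Nfya (0.89) and Brip1 (0.86).

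Genes of the surrounding pathways were read from 7 lists, each described by its counts and its median. Of 14 other reported Musashi targets, 1 was lower in NHD13/MSI2 against NHD13, 1 higher and 1 lower against control, and 0 in NHD13 against control. Their median log2 difference was 0.18, 0.16 and 0.10, against −0.03, −0.01 and 0.02 over all genes tested, and 0.08, 0.16 and 0.03 with genes at the floor set to their bound. The medians without NHD13/MSI2 replicate 4 were 0.0097, −0.15 and 0.088, so that the sign against control turned with 1 library, and 2 were called higher and 2 lower there. Without control replicate 2, 0 were called higher and 1 lower against control. Calls over all genes fell there too, from 1474 to 749 in NHD13/MSI2 against control and from 423 to 156 against NHD13. They also fell without control replicate 1 (697 and 153) and without control replicate 3 (646 and 166). Fewer calls without a control library are therefore not particular to a list or to control replicate 2. Meis1, a homeobox cofactor of stem cells and leukaemia, fell by 5.69 on the log2 scale against NHD13 (SE 0.53, adjusted p = 0.0007), from 523 and 158 CPM to 6.41, 4.24, 4.16 and 11.7 CPM, and control stood at 1015, 705 and 863 CPM. Hoxa9, the homeobox partner of Meis1, was higher than control by 1.16 (SE 0.19, adjusted p = 0.00265) at 189, 183, 166 and 210 CPM against 75.0, 72.8 and 104 CPM. The libraries compared did not overlap for either gene, and the share of all genes without overlap was not counted.

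Among 22 RNA-binding proteins of stem cells, 21 were tested, 0 were called against NHD13, 2 were higher than control in NHD13/MSI2 and 1 in NHD13, and the medians were 0.10, 0.23 and 0.07. Without NHD13/MSI2 replicate 4 the first and second medians turned to −0.077 and −0.12 and 1 gene was called lower against NHD13, and without control replicate 2 only 1 was called higher in NHD13/MSI2 against control. Lin28b, a fetal regulator of let-7, had 0 counts in the 3 controls, 58.5 and 110 CPM in NHD13 and 56.3, 50.6, 67.8 and 81.3 CPM in NHD13/MSI2. It was at least 499-fold higher than control in NHD13/MSI2 (adjusted p = 2.67e-05) and at least 656-fold in NHD13 (adjusted p = 0.000111), with the floor of 3 counts per library. Igf2bp2, an mRNA-binding protein, was higher than control in NHD13/MSI2 by 1.49 (SE 0.26, adjusted p = 0.00366). Of 13 relatives of the Musashi RNA recognition motif family 11 were tested and 0 were called in any comparison, with medians of 0.15, 0.13 and 0.00 and the most abundant of them, Hnrnpa2b1 and Tardbp, both RNA-processing factors, at 0.42 (adjusted p = 0.173) and 0.34 (adjusted p = 0.424) against NHD13. Of 22 genes of Numb and Notch signalling, the pathway that NUMB inhibits, 18 were tested and 0 were called, with medians of 0.21, 0.25 and 0.15. Without NHD13/MSI2 replicate 4 the first of these medians turned to −0.07 and the second to −0.10, and 2 genes were called higher in NHD13/MSI2 against control. Adam10, a protease that cleaves Notch receptors, stood at 0.47 against NHD13 (adjusted p = 0.252). Notch2, one of those receptors, stood at 186 to 239 CPM in 8 libraries and at 1025 CPM in NHD13/MSI2 replicate 4, and was not called (0.84, adjusted p = 0.540).

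Tetraspanins, the family of Tspan3, were less even than Tspan3 itself. Of 26 listed, 19 were tested. In NHD13/MSI2 against NHD13 1 was higher and 2 were lower with a median of −0.46, in NHD13/MSI2 against control 2 were higher and 6 lower with a median of −0.80, and in NHD13 against control 0 were called with a median of 0.02. Tspan6 differed from control by −6.76 (SE 1.07, adjusted p = 0.00229), at 36.2, 38.1 and 56.5 CPM in control against 0, 0, 1.40 and 0.0649 CPM. Tspan12 differed from NHD13 by −6.48 (SE 0.93, adjusted p = 0.00402), with 32.4 and 5.73 CPM in NHD13 and at most 0.407 CPM in NHD13/MSI2. Tspan9 differed from control by −2.82 (adjusted p = 0.00858). Tspan2, whose counts stood under the name Tspan3 as deposited, differed from NHD13 by −2.40 (SE 0.43, adjusted p = 0.00972) and from control by −2.38 (adjusted p = 0.003). The other tetraspanins called against control were Tspan13, Tspan32 and Tspan4, all lower, and Cd53 and Cd82, both higher, which are named here after their values were seen. Without control replicate 2 only 3 tetraspanins were called against control (1 higher, 2 lower) and 0 against NHD13. Calls over all genes also fell there, from 1474 to 749 and from 423 to 156.

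Of the Myc network (MAX, MXD and MYC relatives, 13 of 14 tested), 1 gene was lower in NHD13/MSI2 against both other groups and 0 in NHD13 against control, with medians of 0.06, 0.11 and 0.07, the first of which turned to −0.11 without NHD13/MSI2 replicate 4. Mycn, the relative of Myc that stem cells also use, stood at 41.1, 24.8 and 38.6 CPM in control, 132 and 60.0 CPM in NHD13 and 4.19, 5.04, 8.82 and 2.40 CPM in NHD13/MSI2. It fell by 4.22 on the log2 scale against NHD13 (SE 0.47, adjusted p = 0.00132) and by 2.76 against control (SE 0.43, adjusted p = 0.00198), while Myc itself was not called. The difference between the responses of Mycn and Myc was not tested. Of 26 listed Myc target genes, all tested, 1 was called higher in NHD13/MSI2 against control, Tfrc, the transferrin receptor (1.02, SE 0.21, adjusted p = 0.00866), and 0 elsewhere, with medians of −0.02, −0.08 and 0.04, of which the first turned to 0.035 and the second to 0.0046 without NHD13/MSI2 replicate 4. Tfrc also stands among the erythroid markers and lost its call in 10 of 20 alternatives. Of the other list genes named, Lin28b kept its calls in all 20 alternatives and Meis1 its call against control in all 19, but Meis1 lost that against NHD13 in 1 of 19 (the 2 groups alone, adjusted p = 0.0101). Against control, Hoxa9 lost its call in 3 of 20 alternatives (without control replicate 1, adjusted p = 0.0171, and control replicate 2, adjusted p = 0.0166, among them), Igf2bp2 in 5, Tspan2 in 6 and Tspan9 in 7 of 19. Against NHD13, Tspan12 lost its call in 8 of 19 alternatives and Mycn in 2 of 20, while Tspan2 lost it in 12 and turned sign in 1 of 20.

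**Figure D5:**
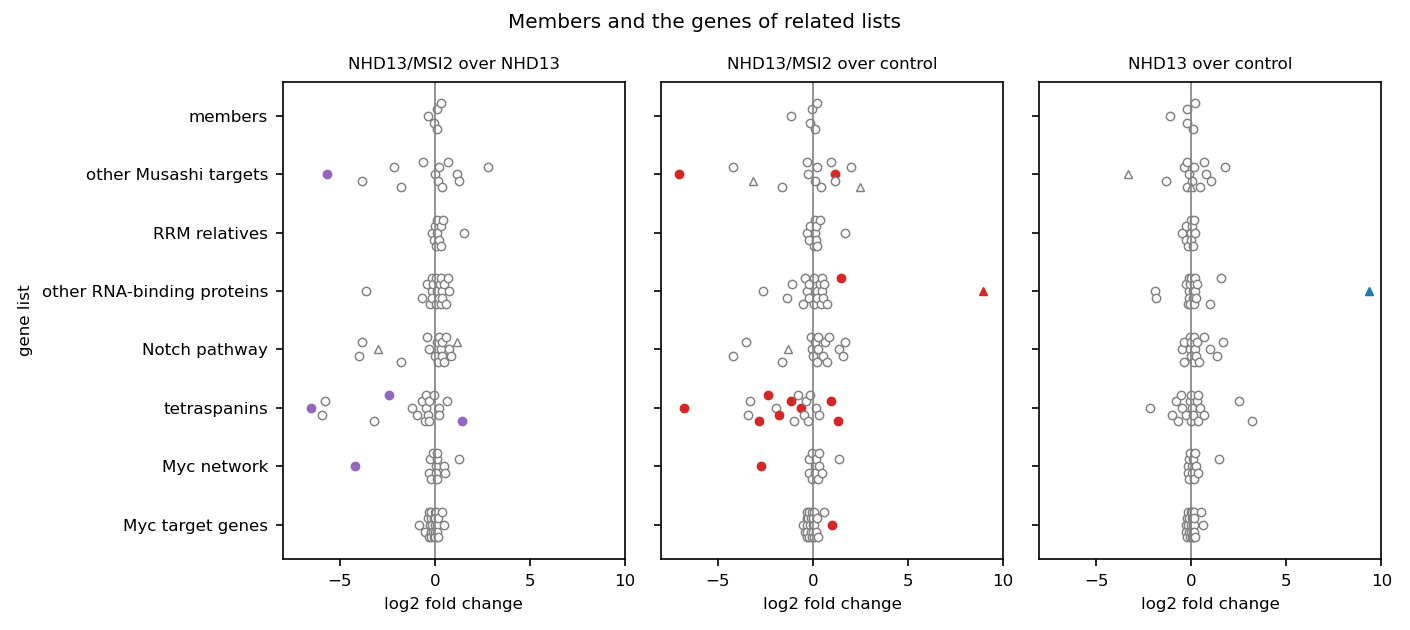
Log2 difference of each tested gene of the members and the 7 lists in the 3 comparisons, with filled symbols at an adjusted p under 0.01 and triangles for lower bounds against a group at or under 3 counts per library. The tetraspanins have the most filled symbols of any list, and Tspan6 lies at −6.76 against control, while the members, the relatives of the Musashi RNA recognition motif family (RRM relatives) and the Notch pathway have no filled symbol.

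Markers of other cells moved with the groups, and their part in these results was not tested. The summed level of 7 LSK markers was 4789 to 5256 CPM in control, 2989 to 3386 in NHD13 and 2823 to 3674 in NHD13/MSI2. Markers of B cells summed to 45.7 to 57.5, 81.9 to 127 and 262 to 448 CPM, and those of neutrophils to 877 to 2403, 134 to 507 and 195 to 603 CPM. Markers of T cells summed to 37.7 to 50.3, 200 to 203 and 50.6 to 86.5 CPM. Most of that sum was Lck, with means of 41.3, 193 and 71.0 CPM, which differed by 2.22 in NHD13 against control (adjusted p = 0.00135) and by −1.44 in NHD13/MSI2 against NHD13 (adjusted p = 0.00426), while Cd3e, Cd3d and Cd3g were at group means of at most 0.345 CPM and were not tested. Megakaryocyte markers summed to 87.0 to 245, 89.8 to 718 and 21.7 to 47.4 CPM, and erythroid markers to 86.7 to 145, 151 to 162 and 155 to 234 CPM. Cd34, a stem and progenitor marker, differed from control by −1.80 in NHD13 (adjusted p = 0.00572) and by −1.07 in NHD13/MSI2 (adjusted p = 0.00457), and Msi2 was below all controls in 5 of the same 6 libraries. Slamf1 and Flt3, also markers of stem cells and early progenitors, were lower in NHD13/MSI2 against control, which makes 3 of 7 LSK markers called lower and 0 higher, and Ly6a stood at 1.60 there without passing (adjusted p = 0.0167). Among the B cell markers, Cd79a, Cd79b and Pax5 were higher in NHD13/MSI2 against control, whereas Ebf1 (−2.53) and Ms4a1, with hardly any counts, were not called. These calls were not all stable: Cd34 lost its call in 9 of 20 alternatives in NHD13 and in 6 in NHD13/MSI2, Slamf1 in 8, and Flt3 and Cd79a in 7 each, and without control replicate 2 none of the 7 LSK markers was called in any of the 3 comparisons. Over all genes, calls in NHD13/MSI2 against control fell from 1474 to 749 there, and to 697 and 646 without control replicates 1 and 3. Against control, 1 LSK marker was called higher and 3 lower without NHD13/MSI2 replicate 4. The groups differ in these marker levels and in genotype together, so the composition of the sorted cells and the genotype cannot be told apart.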

How the data were processed

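RNA-seq counts of 9 LSK libraries were read from the table the authors deposited, in whole-number counts of reads per gene. The submitters' processing notes name STAR, HTSeq, DESeq and mm9, with no versions, and strandedness is not given in the sources used here. Below 11 date-like names the deposited names and counts were out of step, and 11942 names were moved by 2 places. At this offset highly expressed genes regained their level (Tmsb4x from a median count of 1 to 17419), 24060 named genes were used, and the 13 entries left unnamed held 0.0253% to 0.0323% of counts. Low genes were removed by filterByExpr and TMM factors computed with edgeR 4.0.16 in R 4.3.3. The quasi-likelihood test was fitted over all 9 libraries for 3 contrasts and a joint test (adjusted p under 0.01), and was tested on simulated data. Alternatives were DESeq2 1.42.0, other scalings, filters and thresholds, a replicate block, the 2 groups alone, each library left out and names as deposited. Named list genes were those past the threshold, up to 4 a list by size of change, or the 2 most abundant where none passed. For likeness the 3 genes of highest Pearson r were named. The genes and lists were chosen with earlier results of these data known. Same-numbered libraries did not deviate together in every pair (correlations of −0.07 to 0.19), so numbers were not used for pairing.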

Additional observations from a re-analysis of the deposited data

Results flagged for a closer look

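Msi2 in NHD13/MSI2 replicate 4 stood at 241 CPM, far from the 77.1 to 88.0 CPM of the other 3 libraries of its group: the gap to the nearest was 0.933 of the group's whole range, above Dixon's 95% critical value for 4 samples. Chance flags about 1 in 20 groups in this way. The same library had the TMM factor of 0.785 and the lowest Tspan3 level of the 9 libraries, at 42.4 CPM.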

How the results depend on the processing

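Of 285 values of the members under alternatives, names as deposited left aside, 261 kept direction and side of the threshold, 4 came to pass it and 20 changed sign. The count of members called, 0 in each comparison, became 1 (Msi2) against control and in the joint test under the replicate block (Msi2 −1.70, adjusted p = 0.0012, and −0.59 against NHD13, adjusted p = 0.116), which changed no other member's call, and without control replicate 2 and NHD13/MSI2 replicate 4 together, chosen after seeing the data (Msi2 −1.55, adjusted p = 0.000483). Replicate number 4 occurs in 1 group only, so the block absorbs that library. With 1 library left out the count ranged from 0 to 1 in each comparison but NHD13/MSI2 against NHD13, and was 1 without NHD13/MSI2 replicate 4. With names as deposited it was 1 (Tspan3) in NHD13/MSI2 against NHD13, against control and in the joint test. Without TMM factors, Numb turned to −0.10 and Myc to −0.056 against NHD13, and Syncrip to −0.095 and Numb to −0.032 against control. The block turned Numb against NHD13 to −0.0033 and Tspan3 against control to 0.080, and the 2 groups alone turned Msi2 to 0.0095. With 1 library left out, NHD13/MSI2 against NHD13 ranged from −0.58 to 0.16 for Msi2 and −0.37 to 0.94 for Myc, NHD13/MSI2 against control from −0.18 to 0.15 for Myc and −0.27 to 0.080 for Tspan3, from 0.024 to 0.40 for Numb, and NHD13 against control from −0.083 to 0.29 for Numb and −1.01 to 0.30 for Myc. Names as deposited gave Syncrip −0.89, −0.43 and 0.46, and Tspan2 0.22 and Slamf1 1.65 against NHD13. The added alternative gave Numb −0.019 and −0.088 and Tspan3 0.079. All genes called (423, 1474, 138 and 1189 in the 3 comparisons and the joint test) became 1286, 2589, 594 and 2646 with DESeq2 and 1177, 2745, 386 and 2472 at an adjusted p under 0.05. The replicate block called 203 genes in NHD13/MSI2 against NHD13, and fitting the 2 groups alone called 28 there and 83 in NHD13 against control. With 1 library left out, counts outside 1.5 times ran from 130 (without NHD13 replicate 1) to 650 (without NHD13/MSI2 replicate 4) in NHD13/MSI2 against NHD13, from 646 to 967 in NHD13/MSI2 against control, from 38 (without control replicate 3) to 254 (without NHD13/MSI2 replicate 4) in NHD13 against control and from 440 to 706 in the joint test. The cause of these changes was not tested.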
